A study of Homo sapiens with 6 samples.

Results

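The 10 genes described here belong to the transforming growth factor beta (TGF-beta) pathway and were measured in ARPE-19 cells. They are the ligands TGFB1, TGFB2 and TGFB3, the latency protein LTBP1, the receptors TGFBR1, TGFBR2 and TGFBR3, the signal transducers SMAD3 and SMAD7, and the matrix gene TGFBI, which the pathway induces. These 10 genes were chosen by name, from 20461 entries with an Ensembl identifier, and all 10 were among the 13645 genes that passed the filter on low counts. ARPE-19 is an established human retinal pigment epithelial (RPE) cell line. All 6 libraries came from cells that had received a lentivirus at a multiplicity of infection of 10, had been selected with 4 µg/ml puromycin and had then been kept in 37.5 mM glucose for 48 h. In 3 libraries the virus was a control, and in the other 3 it carried PDZK1, a scaffold protein with PDZ domains. Both groups were therefore in high glucose, and the comparison was of PDZK1 overexpression with control virus at the same glucose level. The labels do not say whether the 3 libraries of a group came from separate cultures or how many cell clones survived selection, so the tests measure the spread between these libraries, which may be technical.

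TGF-beta ligands are secreted as inactive complexes, bound to a latency peptide and, through it, to a latent TGF-beta binding protein (LTBP) that anchors the complex to fibrillin fibres of the matrix. Once released, the ligand binds the type II receptor TGFBR2, which recruits and phosphorylates the type I receptor TGFBR1, and TGFBR3 (betaglycan) presents ligand to this pair, above all TGF-beta 2. The activated receptor phosphorylates SMAD2 and SMAD3, which enter the nucleus with SMAD4 and switch on genes such as TGFBI and SMAD7, the last of which inhibits the receptor in a feedback loop. In the eye the pathway is known for matrix deposition and for the change of pigment epithelium towards a fibroblast-like state, and TGF-beta 2 is known as a main isoform there.

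The libraries held 27970618 to 32804567 counts, at which 3 counts, the most that an observed count of 0 allows at 95% confidence, equalled 0.0915 to 0.109 CPM (counts scaled to library size). Such floors cover counting error only, since no use of molecular identifiers is stated and PCR copies may be counted. The overexpressed gene matched the labels, with 19, 18 and 23 PDZK1 counts with control virus against 3020, 2541 and 2828 with PDZK1 virus. Principal component analysis split the groups on component 1 (33.8% of the variance), and component 2 (21.1%) set control replicate 3 apart from the other control libraries, at -29.99 against 14.45 and 18.79. Of 16 RPE markers, 8 had a mean above 1 fragment per kilobase of transcript, scaled to depth (FPKM), among them KRT8, KRT18, EZR, OTX2, MITF and RLBP1, and none of the 12 tested differed at the threshold given below. RPE65 and TTR, which mark mature RPE, were at 0 counts in every library. TYR, DCT, MERTK, LRAT, TYRP1 and SERPINF1 were low, at mean FPKM of 0.00367, 0.0126, 0.170, 0.454, 0.572 and 0.645. BEST1, a further RPE marker, stood at 77.5 FPKM in PDZK1 replicate 1 and at 0.940 to 1.41 FPKM in the others. The summed FPKM of all 16 RPE markers ran from 1273 to 1442 with control virus and from 1334 to 1472 with PDZK1 virus. The sum of PDZK1 replicate 1 includes its high BEST1 value. Most of the summed FPKM came from KRT8, KRT18 and EZR, at means of 579, 506 and 256 FPKM. Summed markers of other cell types were low, with 5.17 to 7.81 FPKM for 6 photoreceptor genes (CRX at 0), 0.617 to 0.838 FPKM for 5 endothelial genes (CDH5 at 0) and 0.346 to 0.847 FPKM for 5 leukocyte genes (CD3E and PTPRC at 0). These are bulk libraries, in which fewer cells of a type and less RNA per cell cannot be told apart.

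LTBP1 was the only member of the group that passed the threshold, and it rose by 0.37 on the log2 scale (1.29-fold) with PDZK1. The other 9 did not pass. Per gene length, TGFBI was the most abundant of the 10 and TGFB3 the least. TGFB2 was by far the leading ligand transcript, and its share did not differ beyond the spread of the libraries. Around the 10 genes, genes for proteins that store or activate the latent ligand moved in both directions: LTBP3 and THBS1 rose while LTBP4, FBN1 and FBN2 fell. The calls of LTBP3, THBS1 and FBN2 held in 16 of 16 refits under other settings and that of LTBP4 in 13, whereas those of LTBP1 and FBN1 lay near the threshold and held in 7.

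The levels were ordered by mean FPKM over the 6 libraries, a measure that accounts for transcript length. TGFBI, a secreted adhesion protein of the matrix, came first at 320.4 FPKM (range 263.4 to 380.1). TGFB2 followed at 80.3 FPKM (66.6 to 87.5) and SMAD3 at 29.1 FPKM (21.8 to 37.7). TGFBR2 had 16.1 FPKM (15.1 to 16.7), TGFBR1 11.4 FPKM (7.74 to 13.6), SMAD7 11.4 FPKM (10.5 to 12.7) and TGFB1 8.49 FPKM (7.14 to 9.90). The lowest levels were those of TGFBR3 at 3.78 FPKM (2.82 to 4.48), LTBP1 at 3.05 FPKM (2.53 to 3.87) and TGFB3 at 0.601 FPKM (0.442 to 0.766). Only 2 pairs of neighbours in this order could not be separated: TGFBR1 exceeded SMAD7 in 3 of 6 libraries, and TGFBR3 exceeded LTBP1 in 4 of 6. Every other gene lay above its next neighbour in all 6 libraries, and their ranges did not meet.

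**Figure D1:**
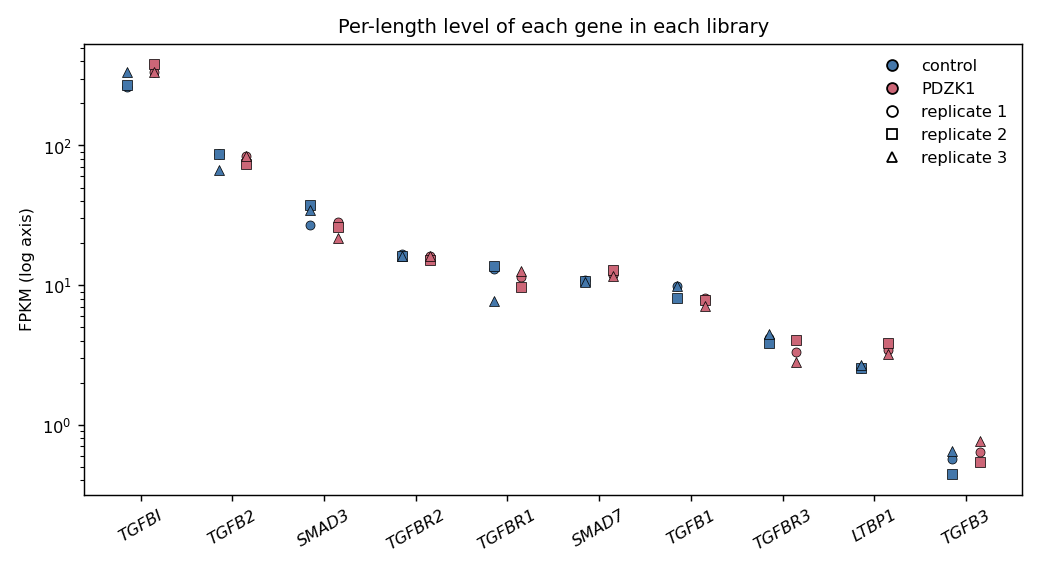
FPKM of the 10 genes on a log axis, one point per library (blue control, red PDZK1, with circle, square and triangle for replicates 1, 2 and 3). The levels fall from 320.4 FPKM for TGFBI to 0.601 FPKM for TGFB3, and in most genes the blue and red points lie close together on this scale.

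Differences between the groups were tested with edgeR on the counts of all 13645 genes, and a gene was called when its Benjamini-Hochberg adjusted p was under 0.05. By this rule 3.83% of all genes tested were called, 1.41% higher and 2.41% lower with PDZK1. Of the 10 genes, 1 was higher (LTBP1) and 0 were lower, while DESeq2 called LTBP1 higher and SMAD3 and TGFBR3 lower. At an unadjusted p under 0.05, 17.5% of all genes and 5 of the 10 (LTBP1, TGFBR3, SMAD7, TGFB1 and SMAD3) passed. The CPM of the 2 groups did not overlap for 23.9% of all genes and for 6 of the 10. Those 6 were LTBP1 and SMAD7, higher with PDZK1, and TGFB1, TGFBR2, TGFBR3 and SMAD3, lower with PDZK1. The median log2 fold change of the 10 was -0.029, against -0.0003 over all genes tested, with 4 values above 0 and 6 below.

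**Figure D2:**
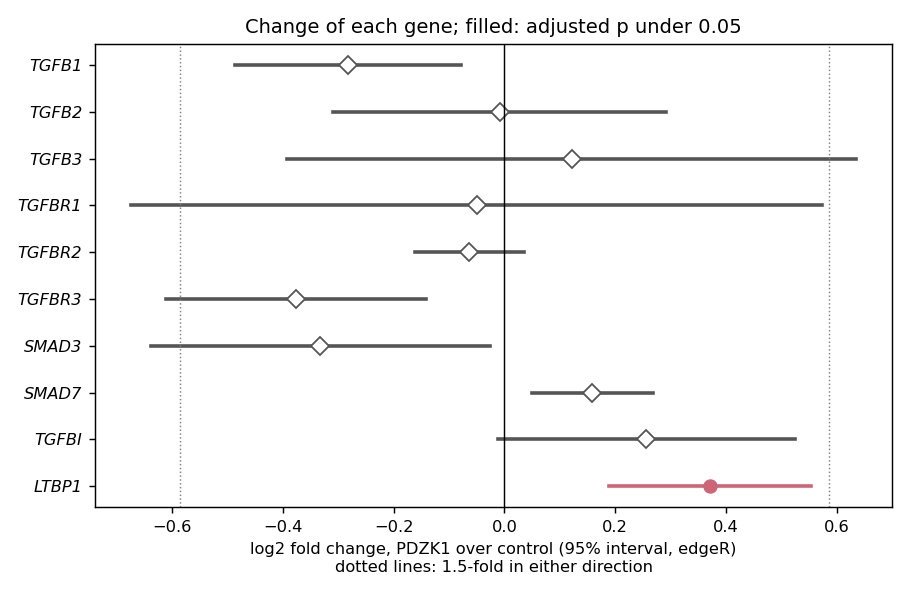
Log2 fold change of PDZK1 over control for the 10 genes, with 95% intervals of the edgeR fit (bars); dotted lines mark 1.5-fold in either direction and the filled point is past the adjusted threshold. The intervals of LTBP1 (0.19 to 0.55) and SMAD7 lie above 0 and those of TGFB1, TGFBR3 and SMAD3 below it, while only LTBP1 had an adjusted p under 0.05.

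Among the ligands, TGFB2 (ENSG00000092969, chromosome 1, 218346235 to 218444619, plus strand, GRCh38) had 529.3, 538.8 and 408.5 CPM in control replicates 1, 2 and 3 and 508.9, 449.8 and 509.3 CPM in PDZK1 replicates 1, 2 and 3. The groups overlapped, and control replicate 3 was the lowest of all 6 libraries. Their means were 492.2 ± 72.6 and 489.3 ± 34.2 CPM (SD, n = 3), a log2 fold change of -0.0087 ± 0.121 (SE, edgeR adjusted p = 0.985). Its 95% interval of -0.31 to 0.29 leaves no room for a change of 1.5-fold, and the sign of the value turned when libraries were scaled by their totals only (0.0091).

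TGFB1 (ENSG00000105329, chromosome 19, 41301587 to 41353911, minus strand), the isoform most widely expressed in the body, had 29.7, 24.5 and 29.9 CPM with control virus and 24.4, 23.7 and 21.0 CPM with PDZK1 virus. The groups did not overlap, but control replicate 2 and PDZK1 replicate 1 differed by little, and in FPKM the groups overlapped. The log2 fold change, -0.28 ± 0.091 (SE), came with an interval of -0.49 to -0.078 and an adjusted p of 0.136 (edgeR). On the opposite strand TGFB1 overlaps HNRNPUL1 (9001 to 10534 counts), CCDC97 (567 to 694 counts) and TMEM91 (53 to 79 counts). Strand use in the counting is not stated, so reads of overlapping genes could not be told apart. HNRNPUL1 and CCDC97 had log2 fold changes of -0.011 and 0.021, and TMEM91 had -0.21 (adjusted p = 0.701, edgeR).

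TGFB3 (ENSG00000119699, chromosome 14, 75958099 to 75982991, minus strand) was low, with 65, 52 and 64 counts with control virus and 68, 62 and 80 with PDZK1 virus. At this depth a log2 fold change of 0.12 was not distinguishable from none (interval -0.39 to 0.63, edgeR adjusted p = 0.845), and the interval reached past a 1.5-fold increase. The value ran from 0.003 without PDZK1 replicate 3 and 0.0093 without control replicate 2 to 0.22 without PDZK1 replicate 2 and 0.24 without control replicate 3. TGFB3 overlaps IFT43 on the opposite strand, which held 573 to 689 counts and had a log2 fold change of -0.046.

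The shares of the 3 ligand genes in their summed FPKM put these values on a common scale. TGFB2 made up 89.3%, 91.1% and 86.3% in the control replicates, in order, and 90.5%, 89.7% and 91.4% in those with PDZK1. The difference of 1.63 percentage points was smaller than the SD of the control libraries, 2.41 points (two-sided exact permutation p = 0.4, where 3 against 3 libraries cannot go below 0.1). TGFB1 supplied 7.77% to 12.8% of the sum and TGFB3 0.460% to 0.838%.

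LTBP1 (ENSG00000049323, chromosome 2, 32946972 to 33399509, plus strand) encodes a protein that binds the latency peptide and targets the latent complex to the matrix. RefSeq places several start sites within this gene, and the 300 bases around the most upstream start and around an internal start are shown because LTBP1 was the member that changed. Each window runs from 250 bases before to 50 bases after the start on the plus strand of GRCh38.p14, and capitals mark the SMAD box CAGACA, a short element that SMAD3 and SMAD4 can bind.
LTBP1 upstream start, chr2:32946703-32947002: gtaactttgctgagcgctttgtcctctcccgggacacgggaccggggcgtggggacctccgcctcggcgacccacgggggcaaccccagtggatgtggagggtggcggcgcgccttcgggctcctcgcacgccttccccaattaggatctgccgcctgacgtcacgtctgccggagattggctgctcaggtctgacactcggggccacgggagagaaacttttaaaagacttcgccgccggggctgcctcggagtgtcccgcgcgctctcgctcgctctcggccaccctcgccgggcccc
LTBP1 internal start, chr2:33134119-33134418: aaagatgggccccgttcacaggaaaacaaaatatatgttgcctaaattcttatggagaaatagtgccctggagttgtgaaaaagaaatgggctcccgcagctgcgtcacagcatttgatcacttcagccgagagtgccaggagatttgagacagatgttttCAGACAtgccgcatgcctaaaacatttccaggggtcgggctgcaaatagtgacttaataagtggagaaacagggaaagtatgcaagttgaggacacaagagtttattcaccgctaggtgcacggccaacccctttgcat
The upstream window is rich in G and C (68.7%) and holds none of the motifs searched, whereas the internal window (46.3% G and C) holds 1 SMAD box, whose first base lies at -89 from the start. A further internal window, which overlaps the second, holds another SMAD box at -121 from its own start. The counts are per gene and do not separate these start sites.

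The same search was made in the windows of all 10 genes, on both strands. CAGACA occurs in 16.9% of all 35116 promoter windows of the annotation, and the 10 genes have 27 windows, of which 6 hold it (22.2%), in TGFB2, TGFBR1, SMAD3 and LTBP1. The AP-1 element TGANTCA occurs in 7.71% of all windows and in 2 of the 27, in TGFBR2 and SMAD3. The palindromic SMAD element GTCTAGAC is in 0.202% of all windows and in none of the 10 genes. A match describes letters in the window and not a bound site.

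LTBP1 had 542, 489 and 453 counts in control replicates 1, 2 and 3 and 692, 743 and 606 in PDZK1 replicates 1, 2 and 3. Scaled to library size these were 16.8, 15.8 and 16.4 CPM against 21.6, 22.7 and 19.1 CPM, so that every PDZK1 library lay above every control library, as was also the case in FPKM. The means were 16.3 ± 0.478 and 21.1 ± 1.83 CPM (SD, n = 3), and the fitted log2 difference of 0.37 ± 0.0815 (SE) had a 95% interval of 0.19 to 0.55 and an edgeR adjusted p of 0.0370. The value lay close to the threshold. It stayed positive in each of 16 refits (0.32 to 0.44), but the call held in 7 of them. Without control replicates 1 or 2 the adjusted p was 0.0889 and 0.146, and without PDZK1 replicates 1 or 2 it was 0.152 and 0.114 (edgeR). With limma-voom it was 0.0607.

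**Figure D3:**
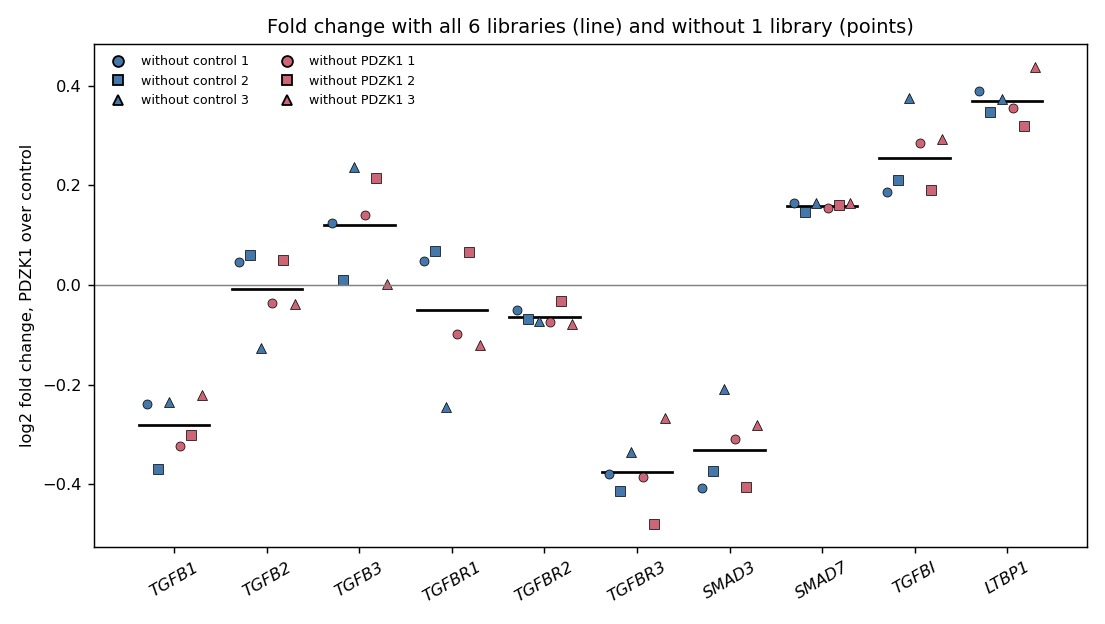
Log2 fold change of the 10 genes with all 6 libraries (black line) and with each library left out in turn (points, coloured by the group and shaped by the replicate that was left out). LTBP1 stays between 0.32 and 0.44, and TGFBR1 and TGFB2 move across 0.

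The receptor genes did not pass the threshold. TGFBR1 (ENSG00000106799, chromosome 9, 99104038 to 99154192, plus strand), the type I receptor kinase, had 87.9, 89.9 and 54.9 CPM with control virus and 80.1, 62.6 and 82.3 CPM with PDZK1 virus. Control replicate 3 was the lowest library, and the groups overlapped. The log2 fold change of -0.05 ± 0.237 (SE) had a wide interval, -0.67 to 0.57 (edgeR adjusted p = 0.948), and the sign turned on the FPKM scale.

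TGFBR2 (ENSG00000163513, chromosome 3, 30606502 to 30694142, plus strand), the type II receptor kinase that binds ligand first, was the steadiest of the receptors. It had 82.8, 80.7 and 80.3 CPM with control virus and 79.2, 74.6 and 79.6 CPM with PDZK1 virus, and the groups did not overlap in CPM although they did in FPKM. The fold change on the log2 scale, -0.063 ± 0.0435 (SE), had an interval of -0.16 to 0.034 (edgeR adjusted p = 0.512). The ratio of TGFBR2 to TGFBR1 FPKM was 1.27, 1.19 and 2.09 with control virus and 1.41, 1.55 and 1.28 with PDZK1 virus. The value of control replicate 3, the library with the lowest TGFBR1 level, stood above the rest. The log2 ratios were 0.553 ± 0.443 and 0.495 ± 0.138 (SD, n = 3), a difference smaller than either SD (two-sided exact permutation p = 1, smallest possible 0.1).

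TGFBR3 (ENSG00000069702, chromosome 1, 91680343 to 91906335, minus strand), the co-receptor, had 27.4, 26.0 and 29.03 CPM with control virus against 21.5, 24.1 and 17.9 CPM with PDZK1 virus. All PDZK1 values were below all control values in CPM, and the groups overlapped in FPKM. The log2 fold change was the most negative of the 10, -0.38 ± 0.104 (SE; interval -0.61 to -0.14), but the adjusted p was 0.0886 (edgeR). It was under the threshold without PDZK1 replicate 2, at -0.48 with an adjusted p of 0.0476, and with DESeq2 at 0.0413.

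**Figure D4:**
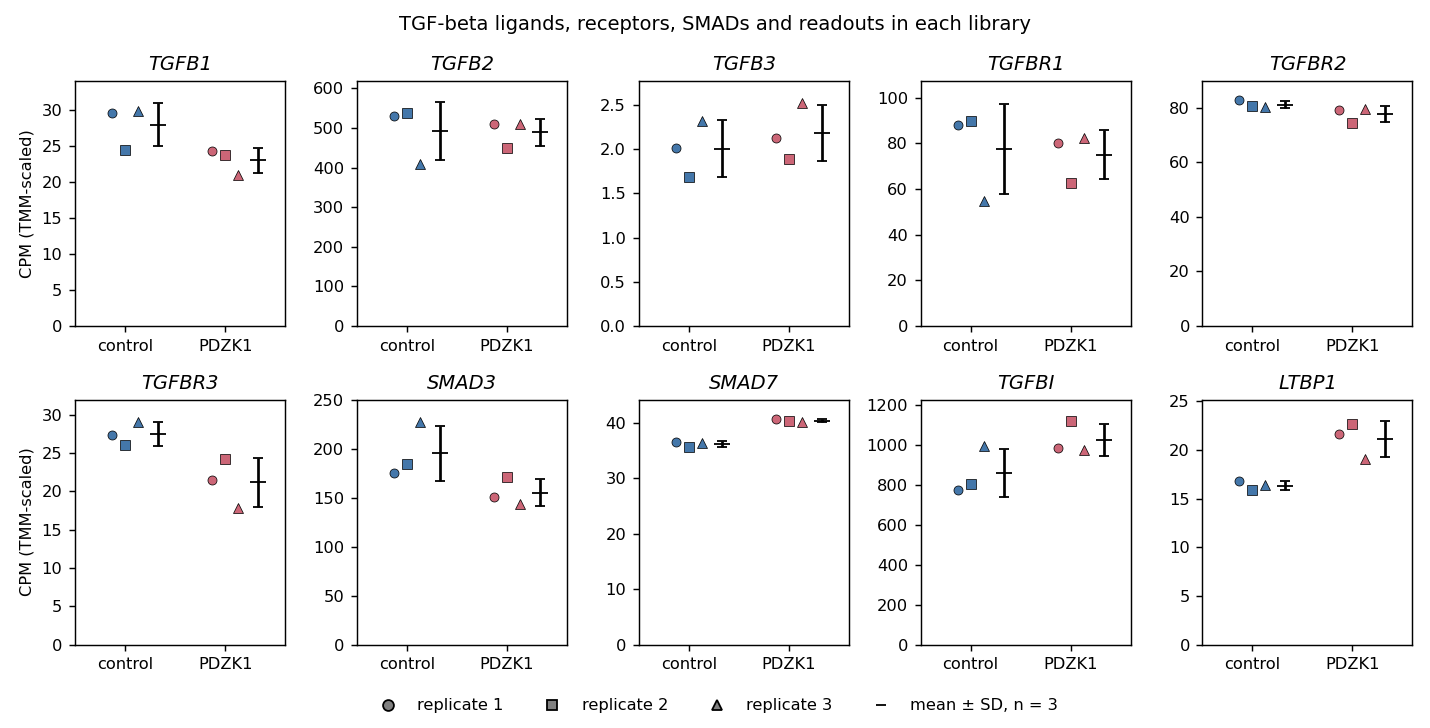
CPM of each of the 10 genes in every library, with a separate axis per gene that starts at 0 (blue control, red PDZK1; circle, square and triangle for replicates 1, 2 and 3) and the mean ± SD of each group (n = 3). The 3 red points of LTBP1 and of SMAD7 lie above all blue points, and those of TGFB1, TGFBR2, TGFBR3 and SMAD3 lie below them.

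Of the SMAD genes in the group, SMAD3 (ENSG00000166949, chromosome 15, 67063763 to 67195195, plus strand), the transducer of TGF-beta signals, had 175.1, 184.3 and 227.8 CPM with control virus and 150.7, 171.2 and 144.3 CPM with PDZK1 virus. Control replicate 3 was the highest library, and the groups did not overlap in CPM but did in FPKM. Its log2 fold change of -0.33 ± 0.121 (SE) had an interval of -0.64 to -0.027 and an edgeR adjusted p of 0.248, and DESeq2 gave an adjusted p of 0.0179. Without control replicate 3 the value was -0.21 (adjusted p = 0.194, edgeR).

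SMAD7 (ENSG00000101665, chromosome 18, 48919853 to 48952052, minus strand), the inhibitory SMAD that is itself induced by the pathway, varied little within groups. The control libraries had 36.5, 35.7 and 36.5 CPM and the PDZK1 libraries 40.7, 40.4 and 40.1 CPM, which did not overlap, nor did the FPKM values. The means were 36.2 ± 0.474 and 40.4 ± 0.295 CPM (SD, n = 3). Despite this narrow spread the log2 fold change of 0.16 ± 0.0487 (SE; interval 0.049 to 0.27) had an adjusted p of 0.118 (edgeR), and no alternative brought it under the threshold.

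TGFBI (ENSG00000120708, chromosome 5, 136028895 to 136063818, plus strand), the readout with the highest level, had 774.6, 803.3 and 995.8 CPM with control virus and 983.8, 1117 and 972.4 CPM with PDZK1 virus. The groups overlapped, as control replicate 3 lay within the PDZK1 range. The log2 fold change of 0.26 ± 0.110 (SE) had an interval that spanned 0, from -0.012 to 0.52 (edgeR adjusted p = 0.307). The call turned on control replicate 3, since without it the value was 0.38 with an adjusted p of 0.0171. Control replicate 3 was the highest or lowest of the 6 libraries for 5 of the 10 genes, as it was for 43.4% of all tested genes. Control replicate 2 was also at an edge for 5 of the 10, against 30.6% of all tested genes.

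The genes around the 10 were read from lists of the pathway, of which 121 genes were outside the group, 16 were at 0 in all libraries and 95 were tested. Of these, 3 rose and 6 fell, where 3.83% of all tested genes were called (1.41% higher and 2.41% lower), with a median log2 fold change of 0.021. In the list of latency and activation genes 2 were higher and 3 lower among 15 tested (median 0.016), to be read against the same shares. No list was tested as a set.

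LTBP3, an LTBP that binds the latent complex as LTBP1 does, had 172.3, 174.7 and 168.8 CPM with control virus and 238.5, 225.6 and 226.2 CPM with PDZK1 virus. It rose by 0.42 ± 0.0356 (log2, SE, edgeR adjusted p = 0.000326), a call that held in 16 of 16 refits. THBS1, thrombospondin 1, an activator of latent TGF-beta and itself on the list of target genes, had 274.9, 286.0 and 306.4 CPM against 384.4, 410.5 and 378.2 CPM. It rose by 0.44 ± 0.0488 (adjusted p = 0.00138, edgeR) and also held in 16 of 16. The control and PDZK1 libraries of both genes were well apart. On the opposite strand THBS1 overlaps FSIP1, which held 18 to 36 counts.

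LTBP4, an LTBP that mainly binds TGF-beta 1 complexes and also serves elastic fibres, had 31.4, 32.1 and 31.9 CPM with control virus and 23.9, 23.4 and 23.6 CPM with PDZK1 virus. It fell by 0.43 on the log2 scale (SE 0.0531, edgeR adjusted p = 0.00240), and lost the call on the FPKM scale, with adjusted p-values of 0.0860 to 0.1002 (limma). LTBP2, which shares the domain structure but does not bind the latent ligand, had 186.0, 186.5 and 216.9 CPM against 193.2, 202.5 and 196.4 CPM and overlapped (0.0075, adjusted p = 0.970, edgeR). LTBP2 was named after its values were seen. Its sign turned when control replicates 1 or 2 or PDZK1 replicate 2 were left out.

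FBN1 and FBN2 encode the fibrillins, the microfibril proteins to which LTBPs attach. FBN2 had 258.4, 262.3 and 262.0 CPM with control virus and 213.5, 210.4 and 207.6 CPM with PDZK1 virus, and fell by 0.31 on the log2 scale (SE 0.0314, edgeR adjusted p = 0.000895), with the call held in 16 of 16 refits. FBN1 had 294.5, 273.9 and 247.0 CPM against 213.5, 186.6 and 214.3 CPM and fell by 0.41 on the log2 scale (SE 0.0779, edgeR adjusted p = 0.0351). Its call held when control replicate 3 was left out, and was lost when any other library was, with adjusted p-values up to 0.138. FBN2 overlaps SLC27A6 on the opposite strand, which held 27 to 74 counts.

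**Figure D5:**
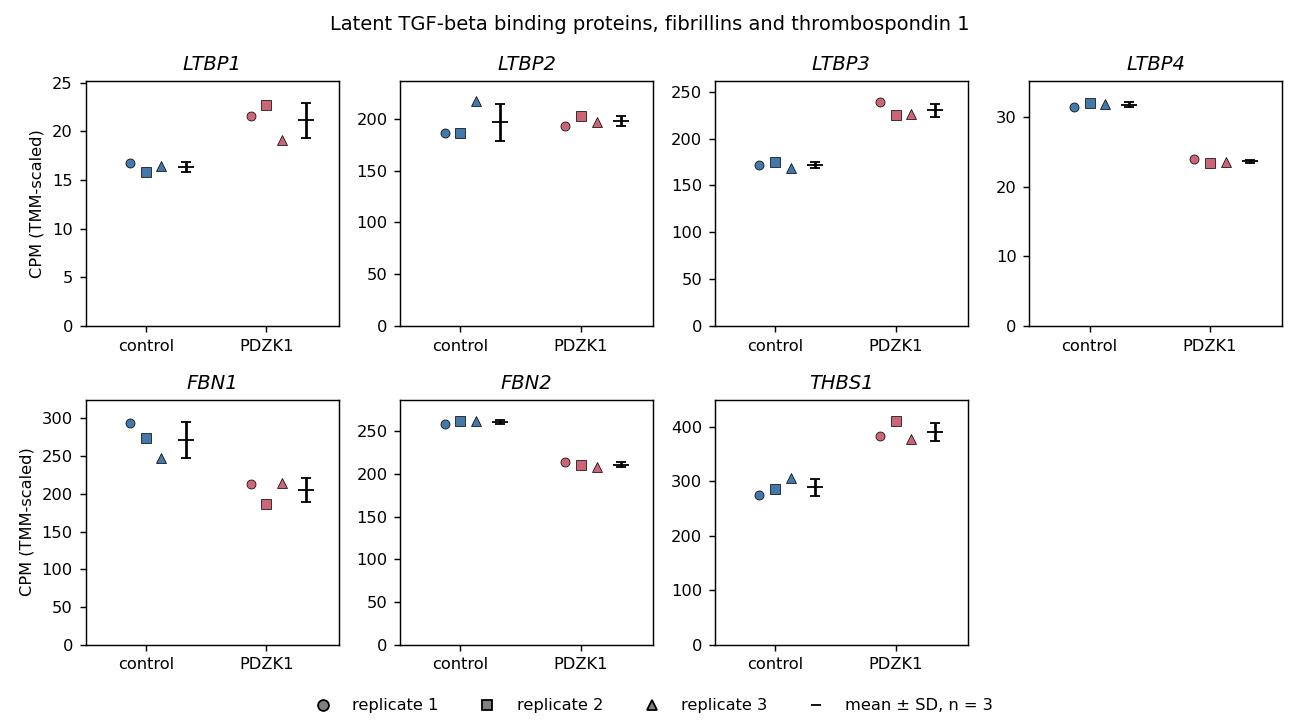
CPM in every library for genes that store or activate latent TGF-beta, with an axis per gene from 0 (blue control, red PDZK1; circle, square and triangle for replicates 1, 2 and 3) and the mean ± SD of each group (n = 3). LTBP1, LTBP3 and THBS1 lie higher and LTBP4, FBN1 and FBN2 lower with PDZK1 virus, while LTBP2 overlaps.

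Summed over the 4 LTBP genes, FPKM were 65.8, 64.5 and 66.8 with control virus and 79.0, 76.1 and 74.7 with PDZK1 virus. LTBP1 held 3.88% to 4.02% of this sum with control virus and 4.32% to 5.08% with PDZK1 virus, and LTBP3 held 50.3% to 55.0% and 59.0% to 62.1%. The shares of LTBP4 were 9.78% to 10.4% and 6.67% to 7.39%, and those of LTBP2 were 31.1% to 35.3% and 26.9% to 29.2%. These shares were chosen after the values were seen and were not tested. The most abundant genes of this list, ITGB1 (0.016, adjusted p = 0.912, edgeR) and MMP14 (0.029, adjusted p = 0.902, edgeR), an integrin chain and a membrane protease, did not pass the threshold.

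Among 12 tested genes on the list of superfamily ligands, which includes the protease gene BMP1, 1 was lower, where 2.41% of all genes tested were called lower. GDF5, a joint-forming growth factor, had 6.16, 8.55 and 8.12 CPM with control virus and 3.84, 4.67 and 3.63 CPM with PDZK1 virus, and it fell by 0.91 on the log2 scale (SE 0.167, edgeR adjusted p = 0.0174). The GDF5 call held in 9 of 16 refits. It was lost without control replicate 2, PDZK1 replicate 1 or PDZK1 replicate 3, with adjusted p-values of 0.0934 to 0.0992 (edgeR). It was also lost with the replicate number as a block (0.0535, edgeR) and on the FPKM scale (0.0509 to 0.07945, limma). The most abundant genes of this list did not pass. They were the ligand gene BMP4 (-0.14, adjusted p = 0.361, edgeR) and BMP1, which encodes a protease that processes procollagens and not a ligand (0.12, adjusted p = 0.256, edgeR).

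Of 5 tested extracellular inhibitors, 1 was lower, against 2.41% of all genes tested. NBL1, a BMP antagonist, had 33.4, 29.8 and 27.8 CPM with control virus against 23.5, 20.1 and 22.1 CPM with PDZK1 virus, and it fell by 0.47 on the log2 scale (SE 0.0855, edgeR adjusted p = 0.0163). Its call held in 10 of 16 refits. Without control replicate 3 NBL1 kept the call, and without any other library it lost it (adjusted p 0.0502 to 0.0825, edgeR). It also lost the call on the FPKM scale without a filter on level (0.0650, limma). NBL1 overlaps MINOS1 and the read-through gene MINOS1-NBL1 on the same strand, and its estimated counts may be shared with the latter. FSTL3 (-0.0058, adjusted p = 0.990, edgeR) and FSTL1 (-0.23, adjusted p = 0.232, edgeR), relatives of the activin-binding protein follistatin, were the most abundant inhibitors, and the sign of FSTL3 turned with library totals only (0.012). Without control replicate 3 the adjusted p of FSTL1 fell under the threshold (edgeR).

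None of the 10 tested receptors of the superfamily beside TGFBR1, TGFBR2 and TGFBR3 passed the threshold, nor did any of 6 other SMAD genes or 19 SMAD regulators. DESeq2 called 0 of them as well, and 3 SMAD genes, 3 regulators and 0 receptors had an unadjusted edgeR p under 0.05. Over all genes tested that share was 17.5%. Without control replicate 3, SMAD9 and SMURF2, a ubiquitin ligase of the pathway, passed the adjusted threshold, as did ENG, the co-receptor endoglin, without PDZK1 replicate 2. SMAD2, the partner of SMAD3, had a log2 fold change of -0.083 (adjusted p = 0.229, edgeR) and SMAD4, the shared SMAD, 0.0055 (adjusted p = 0.964, edgeR). BMPR1A had 0.078, BAMBI, a decoy receptor, -0.053, FKBP1A, which holds the type I receptor inactive, -0.087, and STRAP 0.004.

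Among 30 tested TGF-beta target genes, 1 was higher (THBS1) and 1 was lower, with a median log2 fold change of 0.060, and 16 had groups that did not overlap in CPM. Over all genes, 3.83% were called and 23.9% did not overlap. LOX, lysyl oxidase, which cross-links collagen and elastin, had 429.7, 410.5 and 431.4 CPM with control virus and 360.1, 392.3 and 363.8 CPM with PDZK1 virus and fell by 0.19 on the log2 scale (SE 0.0428, edgeR adjusted p = 0.0426). This call held in 6 of 16 refits. It was lost without control replicates 1 or 2 or PDZK1 replicates 1 or 3 (adjusted p 0.101 to 0.197, edgeR), and with library totals only (0.0583, edgeR). Limma-voom, the 3 fits on the FPKM scale and the fit with the replicate number as a block did not call LOX either. LOX overlaps SRFBP1 on the opposite strand, which held 433 to 644 counts and had a log2 fold change of 0.20 (adjusted p = 0.255, edgeR). Reads of the 2 genes could not be told apart by strand. TPM1, a tropomyosin and one of the most abundant targets (0.079, adjusted p = 0.402, edgeR), did not pass.

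Of 6 tested BMP target genes, 1 was higher, against 1.41% of all genes tested. ID3, an inhibitor of basic helix-loop-helix factors that BMP signals induce, had 69.5, 69.0 and 71.4 CPM with control virus and 93.6, 86.7 and 99.0 CPM with PDZK1 virus, a rise of 0.41 ± 0.0531 (log2, SE, edgeR adjusted p = 0.00294) that held in 16 of 16 refits. Of the 6, 3 had log2 fold changes above 0 and 3 below, with a median of 0.032. Besides ID3, ID1 (0.18, adjusted p = 0.151, edgeR) and SMAD9 (0.25, adjusted p = 0.232, edgeR) were above 0. Those below 0 were SMAD6 (-0.23, adjusted p = 0.125), ID2 (-0.16, adjusted p = 0.183) and ID4 (-0.11, adjusted p = 0.863, all edgeR).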

How the data were processed

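RNA sequencing of 6 ARPE-19 libraries, 3 with control lentivirus and 3 with PDZK1 lentivirus, was analysed from 2 tables. Estimated counts per gene, deposited by the authors as whole numbers without scaling, gave the tests. FPKM, deposited by the authors and scaled by transcript length and depth, gave levels compared between genes. The submitters' processing notes name fastp 0.20.1, HISAT2 2.2.1 and GRCh38, and the counting program and strandedness are not given in the sources used here. Per-sample columns that match no sample (3 in each table) were not used, and 853 assembled loci (0.519% to 0.536% of counts) were left out.

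The robust quasi-likelihood test of edgeR 4.0.16 (R 4.3.3) compared the groups without covariates, with TMM scaling, for the 13645 genes that passed filterByExpr. Benjamini-Hochberg adjustment covered all of them. CPM used TMM-scaled library sizes. Errors are SD over n = 3 libraries or SE of the fit. Two-sided exact permutation tests served the ligand share and the receptor ratio. The 16 refits were DESeq2 1.42.0, limma-voom (limma 3.58.1), other scalings and count filters, limma on log2(FPKM + 1) or log2(FPKM + 0.1) at a mean of at least 0.5 FPKM, the former also without that filter, the replicate number as a block, and each library left out. The tests were checked on simulated counts.

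The members, the lists and the rule for naming were chosen with earlier results of these data known. The rule names the 10 members, PDZK1, genes that overlap a member, and from each list up to 5 called genes in each direction and the 2 with the highest mean FPKM. Genes that overlap a called list gene were added, and a target gene that the rule names is not reported here. Positions are those of GENCODE release 29 (20229 of 20461 identifiers matched), and promoter windows are those of RefSeq on GRCh38.p14, in which all 10 members were found.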

Additional observations from a re-analysis of the deposited data

How the results depend on the processing

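Against 522 genes called, DESeq2 called 814, limma on FPKM 191, 187 and 184 (pseudocount 1, pseudocount 0.1, no filter), and the fit with the replicate block 163. Leaving out 1 library gave 181 to 875, the highest without control replicate 3. Of the 10 members, 1 was called, against 3 with DESeq2 (LTBP1, SMAD3, TGFBR3), 0 with limma-voom, with the 3 FPKM fits, with the replicate block and with an unadjusted p under 0.05 plus a 1.5-fold change, and 0 to 2 when 1 library was left out. Of the other pathway genes, 9 were called, against 16 with DESeq2, 5, 5 and 4 on FPKM, and 5 to 19 with 1 library left out (19 without control replicate 3). Same-numbered libraries did not deviate together (correlations of -0.046, -0.056 and -0.143). These 3 values do not settle whether the replicate numbers pair libraries. The fit with the replicate block is 1 of the 16 refits.

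The receptor log2 ratio difference of -0.0576 ran from -0.2075 to 0.1965 with 1 library left out. Signs turned only in values that were not past the threshold. TGFB2 was 0.0091 with library totals only and 0.012, 0.0122 and 0.012 on FPKM, and -0.1264 to 0.0609 with 1 library left out. TGFBR1 was 0.0022, 0.0054 and 0.0022 on FPKM and -0.2456 to 0.0692 with 1 library left out. FSTL3 was 0.012 with library totals only, 0.0131, 0.0132 and 0.0131 on FPKM and 0.0003 with the replicate block, and -0.1124 to 0.0616 with 1 library left out. With 1 library left out, ITGB1 ran from -0.0362 to 0.0429, MMP14 from -0.0446 to 0.0977, BAMBI from -0.1461 to 0.0163, SMAD4 from -0.0063 to 0.0194, STRAP from -0.0325 to 0.0262 and LTBP2 from -0.0309 to 0.084. The causes were not tested. TGFB3, the member with the lowest counts, had 52 to 80.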

Other observations

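Among the target genes that did not pass the edgeR threshold, 3 were picked out after their values were seen. POSTN, a matrix protein, had 43, 30 and 53 counts with control virus and 8, 11 and 0 with PDZK1 virus (edgeR adjusted p = 0.0704, DESeq2 adjusted p = 0.00292). FN1, fibronectin, had 748.1, 723.8 and 574.8 CPM with control virus and 1027, 833.6 and 1043 CPM with PDZK1 virus (edgeR adjusted p = 0.141, DESeq2 adjusted p = 0.0224). CCN2, a matricellular protein, had 176.9, 184.4 and 142.0 CPM against 211.4, 207.3 and 214.4 CPM (edgeR adjusted p = 0.145), and without control replicate 3 its adjusted p was 0.00311. In each of these 3 genes the groups did not overlap in CPM, as in 23.9% of all genes tested and in 16 of the 30 tested targets. Of the other targets that did not pass the edgeR threshold, DESeq2 called BHLHE40 (lower) and SPHK1 and CDKN1A (higher). Their edgeR adjusted p-values were 0.0526, 0.0630 and 0.103.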
